A study of Populus yunnanensis with 9 samples.

Results

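Lignin stiffens and waterproofs the walls of vessels and fibres, and it is built from monolignols, alcohols made from phenylalanine by a chain of enzymes. After the entry steps, which supply p-coumaroyl-CoA, the ring of the precursor is hydroxylated and methylated while its side chain is reduced from a CoA ester to an aldehyde and then to an alcohol. Genes for 10 enzymes of this later part of the pathway were examined, among 41335 genes in the deposited tables. They were chosen by identifier from knowledge of the pathway in Populus trichocarpa, and the enzyme names used below are those of the P. trichocarpa genes with these identifiers. The tables themselves carry no names, and no annotation was used here to check them. All 10 had enough reads to be tested, as had 27378 genes in all.

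Leaves of 4-month-old Yunnan poplar (Populus yunnanensis) grown from cuttings in potted soil gave 9 RNA libraries, 3 in each of 3 groups. In the Cd + N treatment, cadmium chloride and ammonium bicarbonate were added every 5 d for 60 d, up to 480 mg Cd and 360 mg N per kg of dry soil. The Cd treatment had the same cadmium additions without nitrogen, and the control (CK) had neither. The comparisons address what cadmium did to the plants and what nitrogen did under cadmium, and no group had nitrogen alone. The cuttings came from several wild trees, and which trees or how many plants went into a library was not given in the sources used here. P-values therefore measure only the spread between these libraries. Each library held 31952278 to 40101176 counts on genes, and the 10 genes took from 0.0313% of them in Cd replicate 3 to 0.103% in Cd + N replicate 2. Cd replicate 1 stood apart from its group, with a mean distance of 1.13 in log2 CPM (counts scaled to a common library total) to the other Cd libraries, and was nearest to CK replicate 1. In the other libraries the mean distance to the own group was from 0.735 to 0.985. Among them CK replicate 2, with 0.905, was also nearest to a library of another group, Cd + N replicate 3. For the values that moved most without Cd replicate 1, both are given.

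Levels of different genes were compared in FPKM, the deposited value that scales a gene's count to its length and to the library's total. Averaged over the 9 libraries, CAD1 (Potri.009G095800.v3.0) was at 105 FPKM. CAD is cinnamyl alcohol dehydrogenase, which carries out the final reduction of the aldehydes to monolignols. CCoAOMT2 (Potri.001G304800.v3.0), a caffeoyl-CoA O-methyltransferase, followed with 92.7 FPKM. These 2 genes stood above 97.7% and 97.3% of the genes with a count in any library. COMT2 (Potri.012G006400.v3.0), the O-methyltransferase that methylates the hydroxylated aldehyde on the way to syringyl units, had 42.1 FPKM. CCoAOMT1 (Potri.009G099800.v3.0) had 26.2 FPKM. CCR2 (Potri.003G181400.v3.0), the cinnamoyl-CoA reductase that turns the CoA ester into the aldehyde, had 24.9 FPKM. HCT1 (Potri.003G183900.v3.0), which codes for a transferase that joins p-coumaroyl-CoA to shikimate, had 11.9 FPKM. C3H3 (Potri.006G033300.v3.0), a cytochrome P450 that hydroxylates the shikimate ester, had 9.87 FPKM. The coniferaldehyde hydroxylases CAld5H2 (Potri.007G016400.v3.0) and CAld5H1 (Potri.005G117500.v3.0), cytochromes P450 that open the branch to syringyl lignin, had 9.71 and 5.86 FPKM. HCT6 (Potri.001G042900.v3.0), the other transferase, had the lowest FPKM of the 10, 3.70, above 51.4% of the genes.

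The genes thus covered the range from the middle to the top of the leaf transcriptome. Within libraries, COMT2 was above CCoAOMT1 and CAld5H2 above CAld5H1 in all 9, while CAD1 was above CCoAOMT2 in only 5 of 9, and the other neighbours in this order kept it in 6 to 8 of the 9. The range of each gene over the libraries overlapped that of the next. The order also rests on the lengths recovered from the tables, which were 744 bases for CCoAOMT2 and 2682 bases for CCoAOMT1. In reads these 2 genes were nearly equal, with totals of 22362 and 22653 counts over the 9 libraries, so that the gap between them in FPKM is one of length. HCT6 had more reads than CAld5H1, 3103 against 2903 counts, and is last only through its recovered length of 2592 bases against 1542 bases. What the recovered lengths measure was not established. Comparisons of 1 gene between groups do not depend on them.

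**Figure D1:**
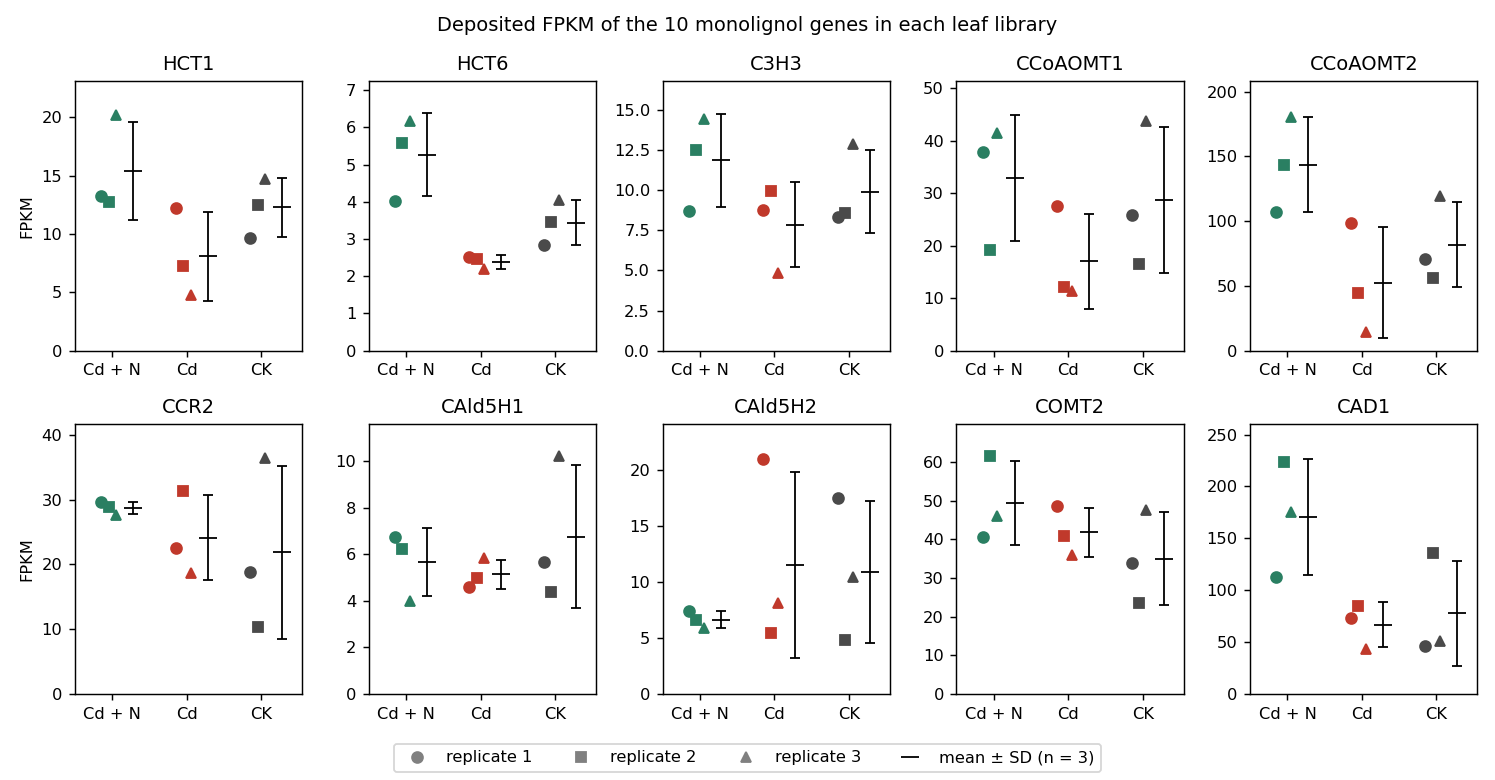
Deposited FPKM (vertical axis, linear from 0) of each of the 10 genes in the Cd + N, Cd and CK libraries, with 1 symbol for each replicate number and the mean ± SD of 3 libraries as the bar. HCT6 lies between 4.02 and 6.17 FPKM in all Cd + N libraries and between 2.18 and 2.51 FPKM in all Cd libraries, while CAld5H2 is set apart by single libraries of Cd and CK.

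The first question is what nitrogen added under cadmium did to these genes. No gene of the 10 passed an adjusted p of 0.05 in edgeR's quasi-likelihood test for Cd + N against Cd, that is 0 of 10, and the share of all 27378 genes tested was 0%. At an unadjusted p under 0.05, 3 of the 10 were higher under Cd + N, HCT6, CAD1 and HCT1, against 6.81% of all genes. The log2 fold change was above 0 for 9 of the 10, against 47.9% of all genes, and its median was 0.77 for the 10 genes and -0.02 for all genes. The median of the 10 was 0.49 without Cd replicate 3 and 1.05 without Cd replicate 1. DESeq2 called 1 of the 10, HCT6, against 3.07% of the genes it tested. In leaf RNA as a whole, more cells that make lignin and more transcript in each of them cannot be told apart.

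The transferases HCT1 and HCT6 take precursors onto the shikimate route to guaiacyl and syringyl lignin. HCT6 had 4.02, 5.59 and 6.17 FPKM in Cd + N replicates 1, 2 and 3, against 2.51, 2.46 and 2.18 FPKM in Cd replicates 1, 2 and 3. Every Cd + N library lay above every Cd library. HCT6 averaged 13.7 ± 2.87 CPM under Cd + N and 6.05 ± 1.00 CPM under Cd (TMM-normalized CPM, SD, n = 3 each). This was a 2.26-fold difference, or 1.18 on the log2 scale (SE 0.219, 95% interval from 0.68 to 1.68). The adjusted p was 0.128 by edgeR's quasi-likelihood test and 2.76e-04 by DESeq2. In the alternatives other than DESeq2 no gene of the 10 was called in this comparison, and the adjusted p of HCT6 reached up to 0.437. Set side by side by replicate number, HCT6 was higher under Cd + N in 3 of 3 cases, which follows from the groups not overlapping. HCT6 was also the gene with the smallest estimated spread of the 10, with a biological coefficient of variation of 23.9%.

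HCT1 had 13.3, 12.7 and 20.2 FPKM in Cd + N replicates 1, 2 and 3, against 12.3, 7.25 and 4.75 FPKM in the Cd replicates. Cd replicate 1 was close to the Cd + N libraries, and the other Cd libraries were well below them. HCT1 was 1.90-fold higher in the fitted means, 0.92 on the log2 scale (SE 0.390, adjusted p = 0.387 by edgeR). Without Cd replicate 1 it was 1.47 (adjusted p = 0.0971), and without Cd replicate 3 it was 0.63 (adjusted p = 0.692), which are the highest and lowest values over all alternatives.

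C3H3 acts directly after HCT, on the shikimate ester. It had 8.71, 12.5 and 14.4 FPKM under Cd + N in replicates 1, 2 and 3, against 8.74, 9.92 and 4.85 FPKM under Cd. The groups overlapped, since Cd + N replicate 1 was level with Cd replicate 1. On the log2 scale the difference was 0.63 (95% interval from -0.10 to 1.35).

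The caffeoyl-CoA O-methyltransferases add the methyl group that guaiacyl and syringyl units share. CCoAOMT2 had 107, 143 and 181 FPKM in Cd + N replicates 1, 2 and 3, against 98.9, 44.2 and 14.6 FPKM in the Cd replicates. Within Cd the highest library had 8.16 times the TMM-normalized CPM of the lowest, the widest spread of any of the 10 genes in any group. The log2 fold change of 1.41 had a 95% interval from -0.05 to 2.88 (adjusted p = 0.413 by edgeR). It was 2.40 without Cd replicate 1 and 0.96 without Cd replicate 3. CCoAOMT1 had 37.9, 19.1 and 41.5 FPKM under Cd + N, against 27.5, 12.2 and 11.3 FPKM under Cd. Its log2 fold change was 0.93 with a 95% interval from -0.23 to 2.10, and 1.59 without Cd replicate 1. In both genes, as in HCT1, Cd replicate 1 was the highest Cd library.

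CAD1 had the largest gap in mean FPKM among the 10. It had 112, 224 and 175 FPKM in Cd + N replicates 1, 2 and 3, against 73.0, 84.7 and 42.9 FPKM in the Cd replicates. All Cd + N libraries lay above all Cd libraries. CAD1 averaged 440.2 ± 145 CPM under Cd + N and 169 ± 59.2 CPM under Cd (TMM-normalized CPM, SD, n = 3 each), a 2.60-fold difference. On the log2 scale this is 1.38 (SE 0.490, 95% interval from 0.26 to 2.50, adjusted p = 0.326 by edgeR). Leaving out a library moved it between 1.12 and 1.60, and without Cd replicate 1 it was 1.53. The adjusted p of the alternatives lay between 0.0858 and 0.645.

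In TMM-normalized CPM, 2 of the 10 genes, HCT6 and CAD1, had Cd + N libraries that did not overlap the Cd libraries and lay above them, against 9.67% of all genes. In deposited FPKM there were 4, with HCT1 and CCoAOMT2 added, against 7.95% of all genes. The scaling thus decides these 2 genes. Cd replicate 1 had the lowest TMM factor of the 9 libraries, 0.912, which raises its CPM, and its 36.0 CPM of HCT1 exceeded the 34.2 CPM of Cd + N replicate 2.

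The remaining genes showed smaller differences in this comparison. CCR2 was even under Cd + N, with 29.6, 28.9 and 27.6 FPKM, against 22.5, 31.4 and 18.6 FPKM under Cd, and had a log2 fold change of 0.29 (95% interval from -0.59 to 1.18). COMT2 had 40.6, 61.5 and 45.9 FPKM under Cd + N, against 48.6, 40.8 and 35.9 FPKM under Cd, with a log2 fold change of 0.27 (95% interval from -0.38 to 0.91). CAld5H1 had 6.73, 6.25 and 4.00 FPKM under Cd + N, against 4.59, 5.00 and 5.83 FPKM under Cd, with a log2 fold change of 0.19 (95% interval from -0.53 to 0.91). All 3 intervals include 0, and that of CCR2 also includes a 2-fold difference.

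CAld5H2 was the only 1 of the 10 with a negative log2 fold change in Cd + N against Cd. It had 7.44, 6.59 and 5.92 FPKM in Cd + N replicates 1, 2 and 3, against 21.0, 5.47 and 8.18 FPKM in the Cd replicates. Cd replicate 1 was far above the other libraries of both groups, which overlapped. The fitted difference of -0.83 (SE 0.606) became 0.081 without that library.

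**Figure D2:**
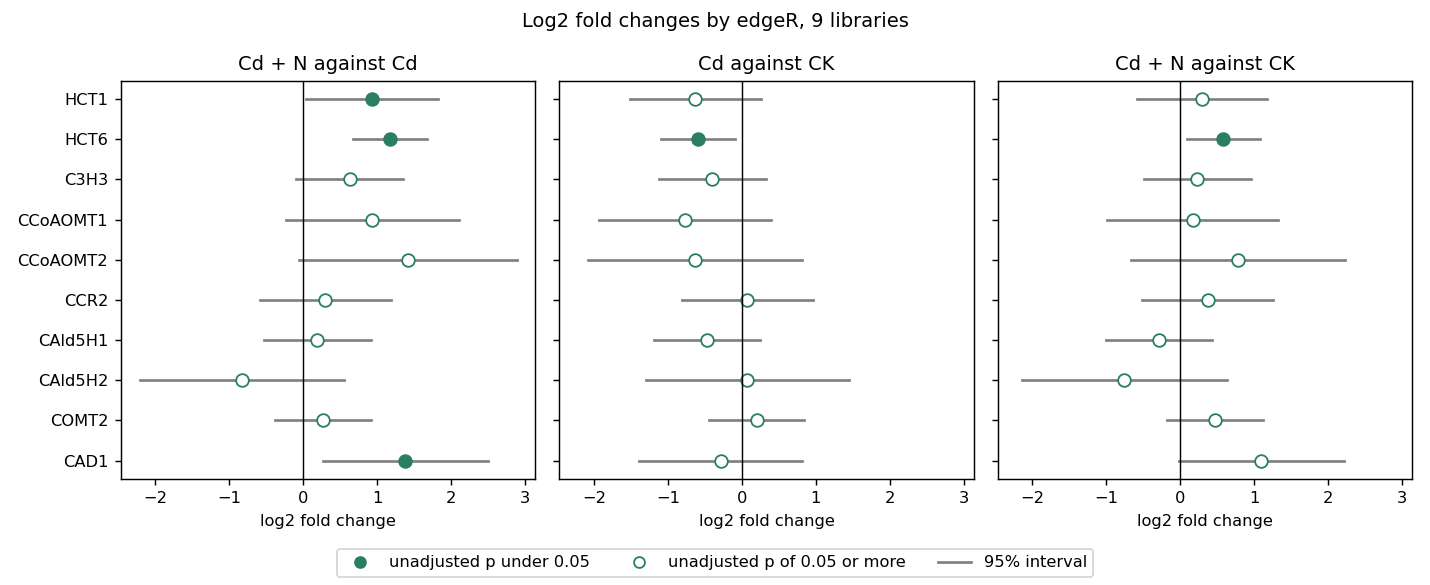
Log2 fold change (horizontal axis) of each gene in the 3 comparisons, from edgeR on 9 libraries, with its 95% interval as a line and filled points for an unadjusted p under 0.05. For Cd + N against Cd 9 of the 10 points lie to the right of 0, and for Cd against CK 7 of the 10 lie to the left.

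The second question is what cadmium alone did. For Cd against CK, 0 of 10 genes passed the adjusted threshold with edgeR, against 0% of all genes, and DESeq2 called 0 of the 10, against 1.8% of its genes. Without Cd replicate 1, edgeR called 499 of all genes and 0 of the 10. At an unadjusted p under 0.05, 1 gene of the 10, HCT6, was lower under Cd, against 4.28% of all genes. The same gene was the only 1 of the 10 whose Cd libraries all lay below the CK libraries, against 7.39% of all genes. A log2 fold change above 0 was found for 3 of the 10, CCR2, CAld5H2 and COMT2, against 50.9% of all genes. The median was -0.44 for the 10 genes and 0.01 for all genes, and that of the 10 was -0.15 without Cd replicate 3 and -0.65 without Cd replicate 1. The Cd libraries are shared with the comparison above, so that a low Cd library moves both.

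HCT6, with 2.51, 2.46 and 2.18 FPKM in Cd replicates 1, 2 and 3 as given above, had 2.84, 3.45 and 4.04 FPKM in CK replicates 1, 2 and 3. The difference was -0.60 on the log2 scale (SE 0.218, 95% interval from -1.09 to -0.10, adjusted p = 0.431 by edgeR, between 0.149 and 0.887 in the alternatives). HCT1 averaged 8.09 ± 3.83 FPKM under Cd and 12.3 ± 2.56 FPKM in CK (SD, n = 3 each), which is -0.63 on the log2 scale with all libraries, -1.18 without Cd replicate 1 and -0.33 without Cd replicate 3. CK libraries had 9.64, 12.5 and 14.7 FPKM of HCT1, a range that takes in Cd replicate 1.

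CCoAOMT1 averaged 17.0 ± 9.09 FPKM under Cd and 28.7 ± 13.9 FPKM in CK, with CK libraries at 25.8, 16.4 and 43.8 FPKM. CCoAOMT2 averaged 52.5 ± 42.8 FPKM under Cd and 82.0 ± 33.1 FPKM in CK, with CK libraries at 70.5, 56.2 and 119 FPKM. The fitted differences of -0.77 and -0.63 on the log2 scale had 95% intervals from -1.93 to 0.40 and from -2.08 to 0.81. Without Cd replicate 1 they were -1.43 and -1.63, and neither gene passed the threshold then. Without CK replicate 3 they were -0.36 and -0.29, and without Cd replicate 3 that of CCoAOMT2 was -0.18. C3H3 averaged 7.84 ± 2.65 FPKM under Cd and 9.91 ± 2.57 FPKM in CK, a log2 fold change of -0.40 (95% interval from -1.12 to 0.33) that was -0.13 without Cd replicate 3.

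CAld5H1 averaged 5.14 ± 0.634 FPKM under Cd and 6.77 ± 3.06 FPKM in CK. Its log2 fold change was -0.47 with all libraries and -0.07 without CK replicate 3, which held the highest value of this gene, 10.2 FPKM. CAD1 averaged 66.9 ± 21.5 FPKM under Cd and 77.6 ± 50.6 FPKM in CK, where replicate 2 had 136 FPKM and the others 46.3 and 50.5 FPKM. For CAD1 the fitted difference was -0.29 (SE 0.482) and turned to 0.41 without CK replicate 2. In CCR2, CAld5H2 and COMT2 the log2 fold changes were 0.07, 0.07 and 0.20, and each became negative when certain libraries were left out. The largest such move was that of CAld5H2, to -0.84 without Cd replicate 1.

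The third comparison, Cd + N against CK, joins both treatments. With edgeR 0 of the 10 genes were past the adjusted threshold, against 0.267% of all genes, and DESeq2 called 0 of the 10, against 6.14% of its genes. Deviations from the group means correlated across genes at 0.183, 0.323 and 0.115 between the libraries of these 2 groups numbered 1, 2 and 3. All 3 were over 0.1, the planned limit for taking the numbers as pairs. Between libraries of different numbers the values ran from -0.334 to 0.273, the highest for Cd + N replicate 1 and CK replicate 3. Because of that value the planned rule was set aside, and the numbers were not taken as pairs in the main test. With the replicate number as a block, the count over all genes was 1442 in place of 73, and the count among the 10 was 0 in both. At an unadjusted p under 0.05, HCT6 was higher under Cd + N, 1 of 10 against 9.44% of all genes. No gene of the 10 had groups that did not overlap, 0 of 10 against 13.5% of all genes higher and 12.6% lower under Cd + N. Of the 10, 8 had a log2 fold change above 0, against 49.8% of all genes. Its median was 0.33 for the 10 genes and -0.00247 for all genes.

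HCT6 averaged 13.7 ± 2.87 CPM under Cd + N and 9.14 ± 1.38 CPM in CK (TMM-normalized, SD, n = 3 each). On the log2 scale this is 0.58 (95% interval from 0.09 to 1.07, adjusted p = 0.236 by edgeR, between 0.122 and 0.614 in the alternatives). The groups touched, as Cd + N replicate 1 had 4.02 FPKM and CK replicate 3 had 4.04 FPKM. CAD1 averaged 170.4 ± 55.9 FPKM under Cd + N and 77.6 ± 50.6 FPKM in CK, a log2 fold change of 1.09 with a 95% interval from -0.02 to 2.20 (adjusted p = 0.299 by edgeR). Leaving out CK replicate 2 gave 1.79 and leaving out CK replicate 1 gave 0.83, and the adjusted p of the alternatives was between 0.0911 and 0.666. By replicate number, HCT6, CAD1, CCoAOMT2 and C3H3 were higher under Cd + N in 3 of 3 cases, although C3H3 was level between the libraries numbered 1.

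CCoAOMT2 averaged 144 ± 36.8 FPKM under Cd + N and 82.0 ± 33.1 FPKM in CK, a log2 fold change of 0.78 (95% interval from -0.67 to 2.23). COMT2, at 40.6 to 61.5 FPKM under Cd + N, had 33.9, 23.6 and 47.6 FPKM in CK replicates 1, 2 and 3, and its log2 fold change was 0.46 (95% interval from -0.18 to 1.11). CK replicate 3 lay among the Cd + N libraries. For HCT1, C3H3, CCoAOMT1 and CCR2 the log2 fold changes were 0.29, 0.23, 0.17 and 0.37, with intervals that include 0. Without Cd + N replicate 3 HCT1 was at 0.05 and C3H3 at 0.07, and CCR2 ranged from 0.03 without CK replicate 2 to 0.91 without CK replicate 3. CCR2 was spread widely in CK, with 18.9, 10.3 and 36.5 FPKM, on both sides of the narrow range of Cd + N. The CAld5H genes had negative values, -0.28 for CAld5H1 and -0.76 for CAld5H2. CAld5H2, at 5.92 to 7.44 FPKM under Cd + N, had 17.5, 4.79 and 10.4 FPKM in CK, and without CK replicate 1 its value was -0.21.

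**Figure D3:**
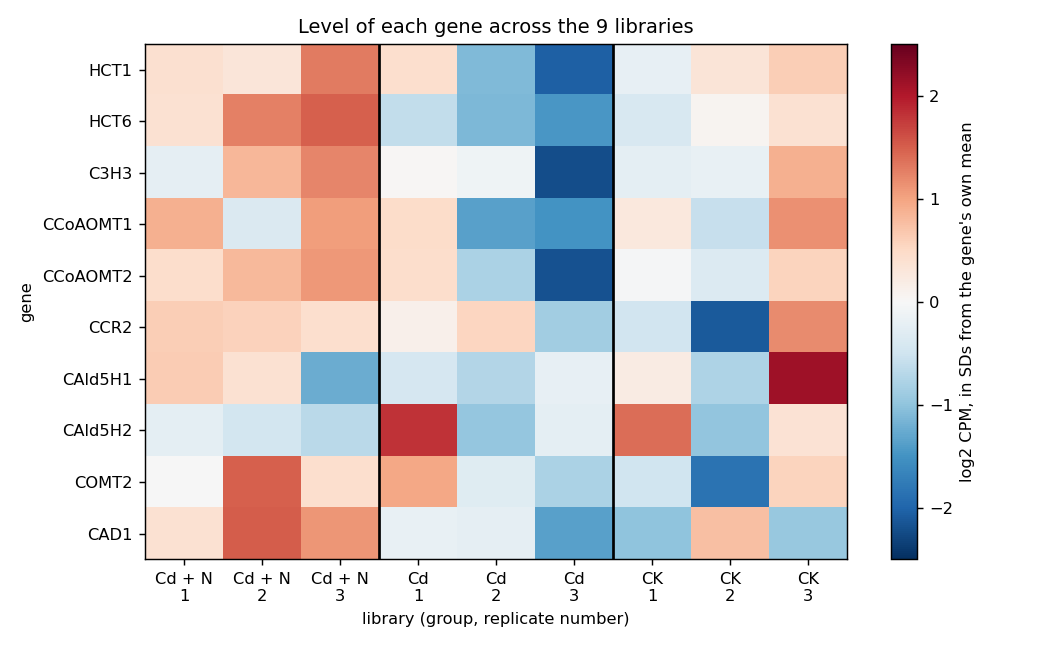
Level of each gene (rows) in each library (columns, by group and replicate number), as log2 CPM in SDs from the gene's own mean over the 9 libraries, red above and blue below. In Cd replicate 3 all 10 genes are below their own mean, and in CK replicate 3 there are 9 above it.

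Much of the variation lay between libraries of the same group. In Cd replicate 3 none of the 10 genes was above its own mean, and 6 of them had their lowest value there. In CK replicate 3, by contrast, 9 genes were above their mean and 3 had their highest value. Cd + N replicates 2 and 3 each had 8 genes above the mean, Cd + N replicate 1 and Cd replicate 1 had 7, CK replicates 1 and 2 had 3 and Cd replicate 2 had 1. The ratio of the highest to the lowest library within a group, in TMM-normalized CPM, had a median over the 10 genes of 1.61 in Cd + N, 2.11 in Cd and 2.15 in CK. It exceeded 2 for 1 gene in Cd + N and for 6 genes in each of Cd and CK. This narrower spread under Cd + N is a description, with no test, and the same ratios were not computed over all genes. Over all genes, the mean distances to the own group were 0.773, 0.960 and 0.748 in Cd + N replicates 1, 2 and 3. In the CK replicates they were 0.735, 0.905 and 0.769.

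The estimated biological coefficient of variation was largest for CCoAOMT2 with 53.3% and CAld5H2 with 51.7%, larger than in 84.4% and 83.4% of all genes tested. In the sum over the 10 genes the Cd + N libraries had 368, 520.4 and 522 FPKM, against 320, 243 and 149 FPKM in Cd and 239, 276 and 350 FPKM in CK. CAD1 alone made up between 14.4% of this sum in CK replicate 3 and 49.3% in CK replicate 2. Without CAD1 the sums were 255, 297 and 346 FPKM in Cd + N and 247, 159 and 106 FPKM in Cd. In CK they were 193, 140 and 299 FPKM, a range that overlapped Cd + N. The lowest Cd + N library, at 255 FPKM, was close to Cd replicate 1 at 247 FPKM. FPKM takes in no TMM factor, and that of Cd replicate 1 was 0.912 against 0.997 in Cd + N replicate 1. The gap between Cd + N and Cd thus depends on the scaling.

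By replicate number, the median difference in log2 CPM over the 10 genes between Cd + N and Cd was 0.13, 0.75 and 1.66 in numbers 1, 2 and 3. Between Cd and CK it was 0.32, -0.25 and -1.06. The differences thus depended strongly on which libraries were set side by side, and those of Cd and CK had opposite signs in numbers 1 and 3. The numbers were not taken as pairs in any comparison, although those of Cd + N and CK met the planned limit.

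**Figure D4:**
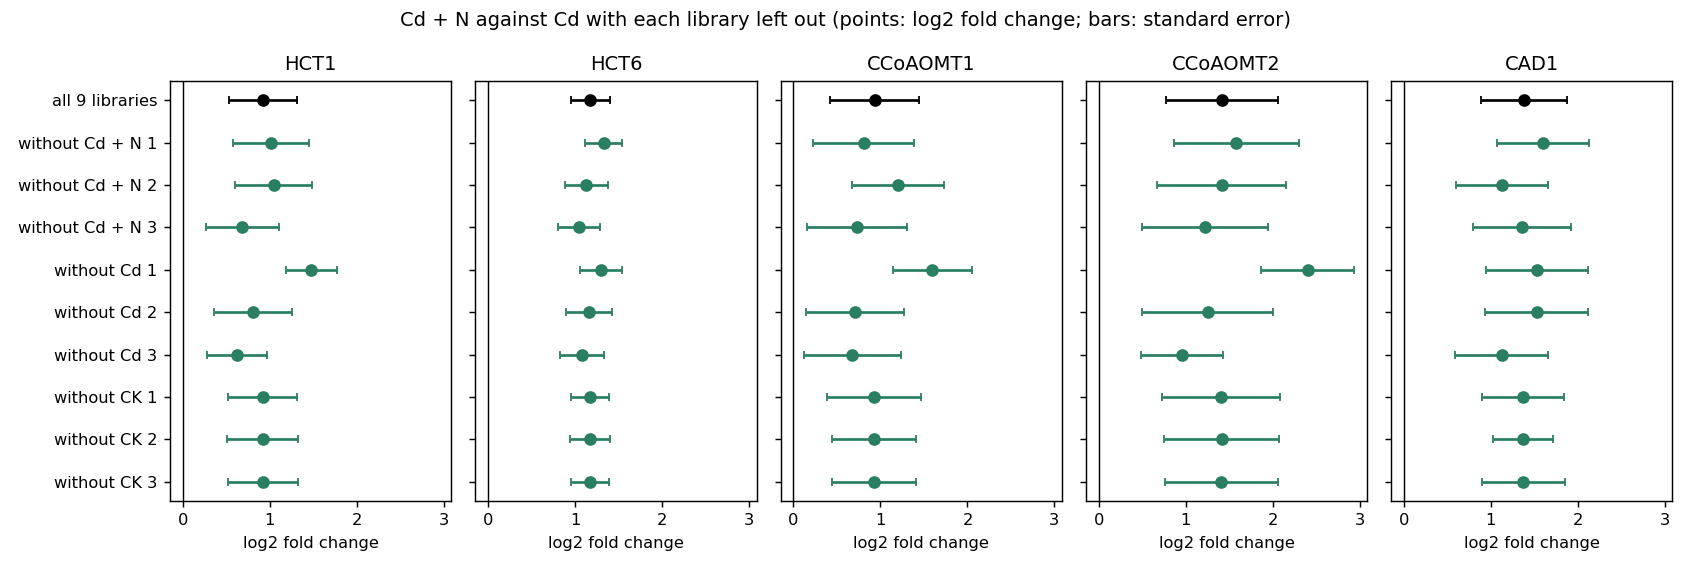
Log2 fold change of Cd + N against Cd (horizontal axis, points, with the standard error as bars) for 5 genes with all 9 libraries and with each library left out (rows). HCT6 and CAD1 move little, from 1.04 to 1.33 and from 1.12 to 1.60, whereas HCT1, CCoAOMT1 and CCoAOMT2 shift to 1.47, 1.59 and 2.40 without Cd replicate 1.

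Families with 2 members allow a comparison within a library, since the ratio of counts cancels the library's depth. HCT1 had 3.41, 2.35 and 3.38 times the counts of HCT6 in Cd + N replicates 1, 2 and 3, 5.04, 3.04 and 2.25 times in Cd and 3.51, 3.73 and 3.77 times in CK. HCT1 was the more abundant gene in all 9 libraries. The ratio was below every CK library in all Cd + N libraries, with a difference of -0.29 on the log2 scale (two-sided exact permutation p = 0.1, the smallest that 3 against 3 libraries can give, and 0.9 after adjustment over 9 tests).

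CCoAOMT2 had 0.783, 2.08 and 1.21 times the counts of CCoAOMT1 in Cd + N, 0.997, 1.00 and 0.357 times in Cd and 0.757, 0.947 and 0.755 times in CK. The ratio of Cd + N replicate 2 stood out as the highest and that of Cd replicate 3 as the lowest. The exact permutation p between groups was 0.2 to 1, in a design that cannot go below 0.1, so that no difference could be shown or dismissed. CAld5H2 and CAld5H1 had similar counts in 7 libraries, with ratios from 1.02 to 1.48, but CAld5H2 had 4.60 times as many in Cd replicate 1 and 3.08 times in CK replicate 1. Over all genes Cd replicate 1 was nearest to CK replicate 1, whereas CK replicate 1 was nearest to CK replicate 3. Whether reads were shared between the members of a family was not known.

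**Figure D5:**
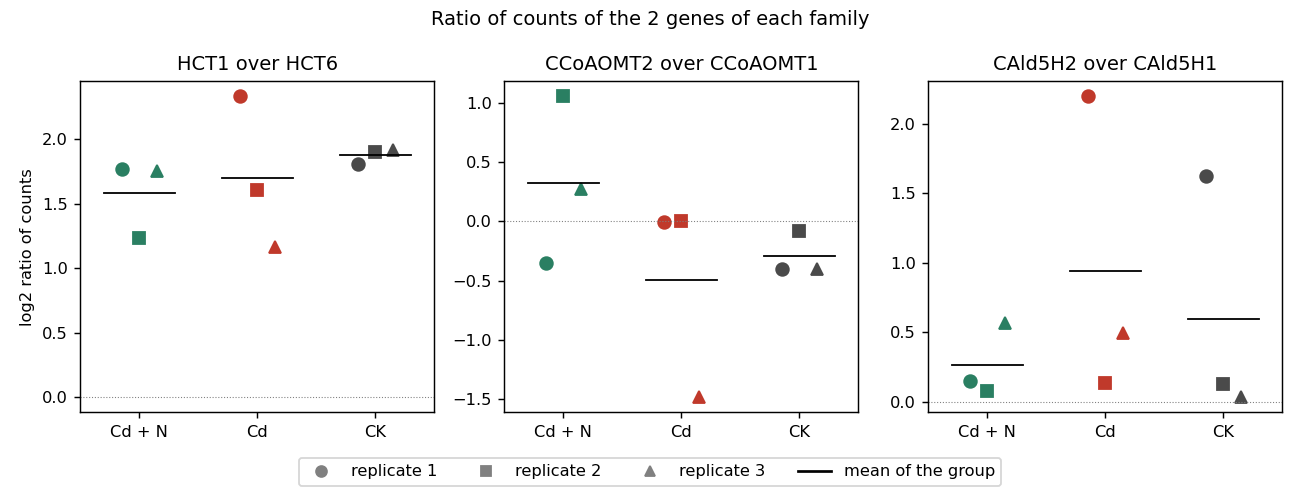
Log2 ratio of the counts of the 2 genes of each family (vertical axis) in each library of Cd + N, Cd and CK, with 1 symbol for each replicate number and the group mean as a line. The ratio of CAld5H2 to CAld5H1 lies between 0.03 and 0.57 in 7 libraries, at 2.20 in Cd replicate 1 and at 1.62 in CK replicate 1.

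Correlations over the 9 libraries, in log2 CPM, include the differences between the groups. Their permutations exchanged all 9 libraries regardless of group, so that a small p can come from those differences alone. For HCT1 and HCT6 Pearson's r was 0.84 (exact permutation p = 0.00297, adjusted p = 0.00482 over 3 relations) and Spearman's rho was 0.72 (exact permutation p = 0.0369, adjusted p = 0.0553). For CCoAOMT2 and CCoAOMT1 r was 0.82 (exact permutation p = 0.00321, adjusted p = 0.00482) and rho 0.78 (exact permutation p = 0.0172, adjusted p = 0.0517). Cd replicates 2 and 3 were the libraries farthest from the median of HCT1 and of CCoAOMT2. Without them r was 0.66 (exact permutation p = 0.103) for the HCT pair and 0.54 (exact permutation p = 0.221) for the CCoAOMT pair, over 7 libraries. Leaving out the extremes of 1 gene narrows its range and tends to lower r, so that this does not show what the relations rest on. For CAld5H2 and CAld5H1 r was 0.29 (exact permutation p = 0.450, adjusted p = 0.450) and rho 0.57 (exact permutation p = 0.121, adjusted p = 0.121). Without Cd replicate 1 and CK replicate 1, the libraries farthest from the median and those with the high ratios given above, r was 0.89 over 7 libraries, which follows in part from leaving those out. For deviations from the group means, an addition made after seeing the data, r was 0.76 for the HCT pair (exact permutation within groups p = 0.037, adjusted p = 0.111 over 3 relations), 0.73 for the CCoAOMT pair (exact permutation p = 0.0833, adjusted p = 0.125) and 0.31 for the CAld5H pair (exact permutation p = 0.565, adjusted p = 0.565). None passed the threshold after adjustment.

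Among 23365 other genes with a mean of at least 1 CPM, the 3 whose log2 CPM followed the mean standardized level of the 10 most closely over the 9 libraries were Potri.012G094900.v3.0 (r = 0.99), Potri.001G036900.v3.0 (r = 0.97) and Potri.018G043100.v3.0 (r = 0.96). They had means of 2.31, 14.2 and 1.09 CPM. The tables do not pair these identifiers with names. Potri.001G036900.v3.0 was on the planned list of other genes of the monolignol pathway, which was not used here for want of an annotation to check it against.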

How the data were processed

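Leaf RNA of 9 libraries, 3 in each of Cd + N, Cd and CK, was sequenced from Illumina TruSeq libraries. The groups and replicate numbers follow the sample titles. The tables the authors deposited hold raw read counts for each gene and the FPKM values obtained by scaling those counts to gene length and library total. The submitters' processing notes name Bowtie2 2.0.6 and TopHat2 2.0.12. The sources used here give neither counting tool nor strand setting, so reads of paralogs or overlapping genes may have been split in ways not known. The deposited FPKM gave one length per gene in all libraries within a relative tolerance of 1e-06, and all 34971 lengths were multiples of 3.

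The main test on the counts was that of edgeR 4.0.16 in R 4.3.3 (filterByExpr with a minimum count of 10 and a minimum total of 15, TMM factors, quasi-likelihood test on all 9 libraries). The Benjamini-Hochberg adjustment ran over all genes tested, with a threshold of 0.05. Standard errors (SE) are approximate, each log2 difference divided by the root of its F statistic, and the 95% intervals use the test's degrees of freedom. Log2 CPM has a prior count of 2. The test was also run on counts generated with known changes. These were drawn from the fitted spread, with no library standing apart and nothing shared by replicate number. That run therefore cannot show how the test behaves where libraries differ in such ways. All replicates differed by more than sampling noise. Deviations from group means of same-numbered libraries correlated across genes at 0.115 to 0.323 in all 3 pairs of Cd + N and CK, over the limit of 0.1, and in 2 of 3 pairs in the other comparisons. By the plan, numbers were pairs where all 3 passed this limit, which Cd + N and CK met. That rule was set aside because Cd + N replicate 1 and CK replicate 3, of different numbers, reached 0.273. What a number shares is not stated. Alternatives were DESeq2 1.42.0 on all genes with a count and, added after seeing the data, on the genes that passed the filter, other factors, no filter, 2 groups only, a replicate block, limma 3.58.1 on log2(FPKM + 1) and log2(FPKM + 0.1) with genes of at least 1 FPKM in 3 libraries, the first also unfiltered, and leaving out each library. Plots used matplotlib 3.10.9.

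The 10 genes, the lists and the tests were chosen with earlier results of these data known. All 10 are described, together with the 3 genes outside the list whose pattern was most alike. A list of other pathway genes, leaf and secondary wall markers, promoter motifs and protein comparisons had been planned where an annotation named them, and were not run, as none was used here.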

Additional observations from a re-analysis of the deposited data

How the results depend on the processing

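Among the 10 genes, the count past the adjusted threshold was 0 in every alternative for Cd against CK and Cd + N against CK, and for Cd + N against Cd it was 1 by DESeq2 (HCT6), on either set of genes, and 0 otherwise. It was 0 with each library left out, lowest and highest. The replicate block changed no call among the 10. Of the 30 log2 fold changes, 23 kept their direction in all 18 alternatives. With a library left out, CCoAOMT1 for Cd + N against CK ranged from -0.11 to 0.57, CAld5H1 for Cd + N against CK from -0.51 to 0.11, CAld5H2 for Cd + N against Cd from -1.19 to 0.081, and for Cd against CK CCR2 ranged from -0.25 to 0.63, CAld5H2 from -0.84 to 0.62, COMT2 from -0.018 to 0.46 and CAD1 from -0.54 to 0.41. With the replicate block CAld5H2 was at -0.027 for Cd against CK.

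Over all genes, the 73 for Cd + N against CK became 2135 by DESeq2 on 34772 genes. It was 2128 by DESeq2 on the genes that passed the filter (chosen after seeing the data) and 1442 with the replicate block. With limma it was 240 on log2(FPKM + 1), 197 on log2(FPKM + 0.1) and 179 on the first without a filter. With a library left out it ran from 0 to 440, the highest without Cd replicate 1. The 0 for Cd + N against Cd became 1069 and 1075 by DESeq2 on these sets of genes, 2 with 2 groups only, 313 with the replicate block, 61 with limma on log2(FPKM + 1) and 25 with that fit unfiltered, and 0 to 22 with a library left out. The 0 for Cd against CK became 627 and 623 by DESeq2, 4 with the replicate block and 499 without Cd replicate 1. It stayed at 0 with any other library left out. The cause was not tested. With 3 libraries per group, most of the 30 intervals include both no difference and a 2-fold one.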
